A study of Danio rerio with 18 samples.

Results

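The germ-free response was compared between 2 organs of the zebrafish, the intestine and the kidney, gene by gene. The question was in which genes the gap between microbe-free and conventional fish had another size, or another direction, in one organ than in the other. The comparison used 12 of the 18 RNA-seq libraries of the study, chosen by their labels: wild type AB fish raised conventionally (CV) or germ-free (GF), 3 libraries in each of 4 groups. The other 6 libraries came from chd8-/- fish and were not used. Intestines were dissected at 5 days after fertilization and kidneys at 7 days, so organ and age cannot be told apart, and every tissue difference given here is also a difference between those ages. Eggs of the same matings were split in 2: CV eggs went into plain embryo medium, whereas GF eggs spent some hours in filtered medium with antibiotics, were washed in polyvinylpyrrolidone and soaked in sodium hypochlorite, and were then raised in sterile medium. The GF state therefore includes these chemical steps as well as the absence of microbes, in both organs. The labels give 30 fish for the intestine and 50 for the kidney, pooled, and do not say if that is per library or per group. They number the replicates without naming separate clutches, so p-values measure the spread between these libraries, which may be technical.

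Microbes of the gut feed signals into the host through pattern recognition receptors, through metabolites such as short-chain fatty acids and modified bile acids, and through the stress and feeding state of the animal. The intestinal epithelium meets these signals directly, while other organs receive them through blood, hormones and circulating immune cells. In the larval zebrafish the kidney holds the developing blood-forming tissue around its tubules, so a kidney library holds nephron, blood, vessel and stromal RNA together.

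An intestine library held 26864797 to 36624972 counts and a kidney library 27291597 to 30502058. The intestine label was checked on its markers: 17 intestinal genes summed to between 8066 and 13995 CPM (TMM-scaled counts, with factors over the 12 libraries) in intestine libraries and to between 270 and 735 CPM in kidney libraries. The podocyte gene NPHS1 ran from 1.12 to 1.72 CPM in the intestine and from 5.05 to 12.6 CPM in the kidney. The whole kidney list of 23 genes was instead higher in the intestine (3263 to 4695 CPM against 1855 to 2197 CPM). It holds genes that the gut also expresses. Largest in the intestine were atp1a1a.4 (1467 to 2073 CPM, against 444 to 756 CPM in the kidney) and CDH17 (518 to 898 CPM against 165 to 242 CPM). Other members were higher in the kidney, such as LRP2 (21.8 to 37 CPM in the intestine, 94.2 to 188 CPM in the kidney) and SLC22A2 (38.3 to 56.9 CPM against 96.9 to 430 CPM). Both dissections held pancreas: 12 exocrine genes summed to between 13805 and 30865 CPM in the intestine and to between 37493 and 79067 CPM in the kidney. Liver was held by both as well, with 13 genes at 22543 to 35351 CPM in the intestine and 6924 to 17502 CPM in the kidney. By the quality weight that voom gives each library (geometric mean 1 over the libraries), 3 libraries stood lowest. They were kidney CV replicate 1 (0.352), kidney GF replicate 2 (0.401) and intestine GF replicate 3 (0.544). Intestine CV replicate 2 came next (0.632) and was kept, so the cut at 3 is a choice. Values without the 3 lowest together are given where they matter. These 3 were picked by their deviation in these same data, so leaving them out tends to lower the spread within groups. The quality weights count the same libraries for less. A gene called by either fit is therefore described by it, and the call is not independent support.

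No gene passed the test of the tissue difference, and the values are given as descriptions. KLF9, a glucocorticoid-responsive gene, and SLC3A2, an amino acid transporter subunit, stood higher in GF than in CV intestine and lower in GF than in CV kidney. TGFBI, a matrix gene, and lyve1b, a vessel gene, stood higher in GF kidney and not in GF intestine. Of 51 interferon response genes, 46 stood lower in GF in both organs, against 6707 of all 22368 genes. A negative tissue difference was found in 40 of the 51, against 49.0% of all genes. The median of these 51 went from −0.67 to −0.24 without kidney CV replicate 1, the library highest in macrophage and neutrophil markers. The tissue difference is the GF minus CV difference in the kidney less that in the intestine, on the log2 scale, so that a positive value means that GF stood higher, relative to CV, in the kidney. Of 22368 genes tested, 0 (0% of the genes tested) had a Benjamini-Hochberg adjusted p under 0.05 in edgeR's quasi-likelihood test, the smallest being 0.114. At an unadjusted p under 0.05 there were 1291 genes (5.77%), 754 of them positive (3.37%) and 537 negative (2.4%), where 5% of the genes tested would be 1118. The germ-free differences within each organ gave 0 calls as well, with 1266 genes at an unadjusted p under 0.05 in the intestine (5.66%) and 2345 in the kidney (10.5%), and so did their mean over both organs (2472 genes). DESeq2 called 24 genes for the tissue difference (0.107%), 10 positive and 14 negative. Voom called 0, and so did edgeR with the replicate number as a block. Voom with library quality weights called 3 (0.0134%), KLF9, TGFBI and SLC3A2, and edgeR without the 3 libraries called 9 of 22536 (0.0399%). In a bulk library, fewer cells of a type and less RNA per cell cannot be told apart, for every gene below.

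Over all genes the germ-free differences of the 2 organs correlated weakly. The correlation was lower among well-expressed genes and higher among genes with a small p in both organs. Across the 22368 genes the germ-free differences of intestine and kidney correlated with a Pearson r of 0.324 and a Spearman rho of 0.213, a description across genes, which are not independent, of libraries normalized together. The signs were opposite in 10108 genes (45.2%). Among the 216 genes with an unadjusted p under 0.05 in both organs, 130 were lower in GF in both, 47 were higher in both, and 39 were opposite. These 216 had an r of 0.691, a rho of 0.789 and 81.9% with the same sign, but were picked by their differences in both organs. The part of the spread between libraries in these correlations was not tested. Among the 11184 genes above the median level, r was 0.23, rho was 0.0212 and 50.9% had the same sign. The correlation r was 0.184 without intestine GF replicate 3 and 0.368 without kidney GF replicate 2. Without the 3 libraries r was 0.0858 and rho 0.0477, and 50.1% of 22536 genes had the same sign. Of the 1291 genes with an unadjusted p under 0.05 for the tissue difference, 1136 (88.0%) had opposite signs in the organs, 681 with GF higher in kidney and lower in intestine and 455 the other way round. A tissue difference is largest where the signs are opposite, so this share describes the genes picked and no more.

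**Figure D1:**
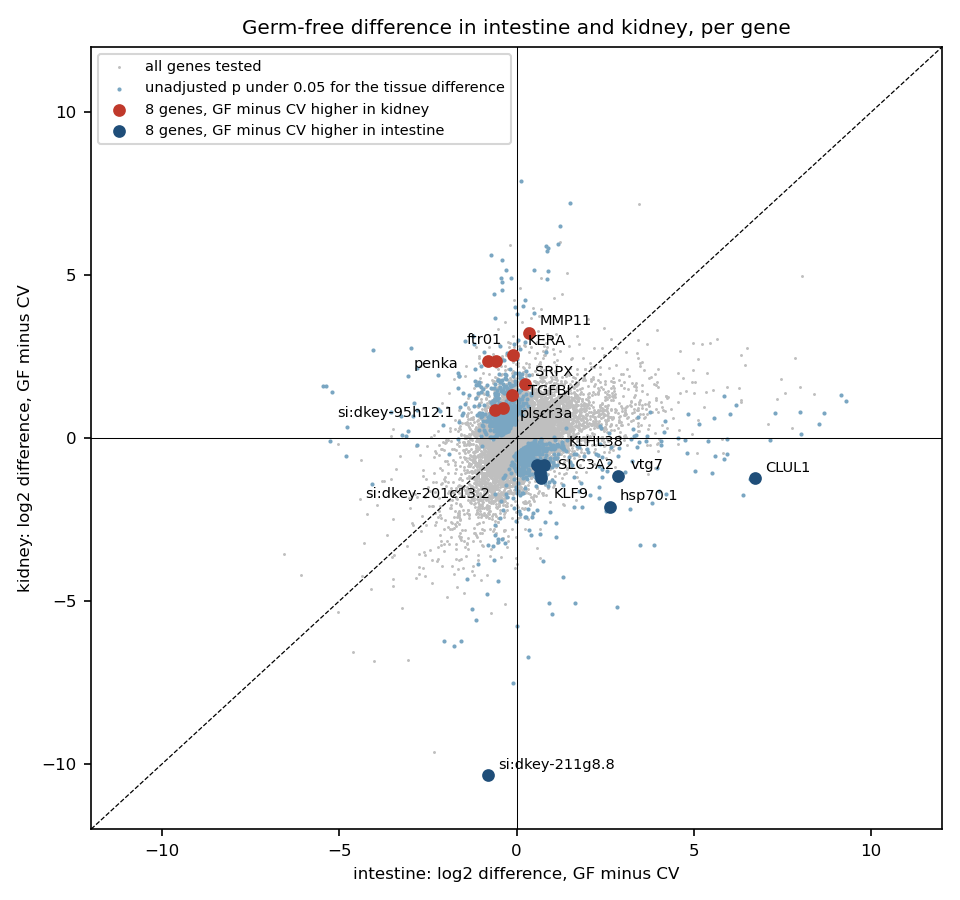
Germ-free difference (GF minus CV, log2) of each gene in the intestine (horizontal) and the kidney (vertical), with 22368 genes tested in grey and 1291 with an unadjusted p under 0.05 for the tissue difference in light blue. The dashed line marks equal differences. The 16 genes with the smallest p among genes with a symbol lie off it, 13 of them with opposite signs. CLUL1 and si:dkey-211g8.8 have a group at 0 reads, so their fitted positions depend on the prior count.

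The 16 genes described first are, among genes with a symbol, the 8 with the smallest p in each direction. All 16 failed to pass in edgeR (adjusted p from 0.114 to 0.803). Of them 15 passed in DESeq2, which called 24 of all 22368 genes (0.107%). DESeq2 used the same counts and contrast, so its calls among genes picked by a small p are not independent support. In 8 of them the CV and GF libraries did not overlap in either organ and lay in opposite order. Over all genes, groups apart in opposite order occurred in 95 genes with GF higher in kidney (0.425%) and in 50 with GF lower in kidney (0.224%). Since the smallest p-values picked these 16, that contrast with all genes describes them and tests nothing.

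**Figure D2:**
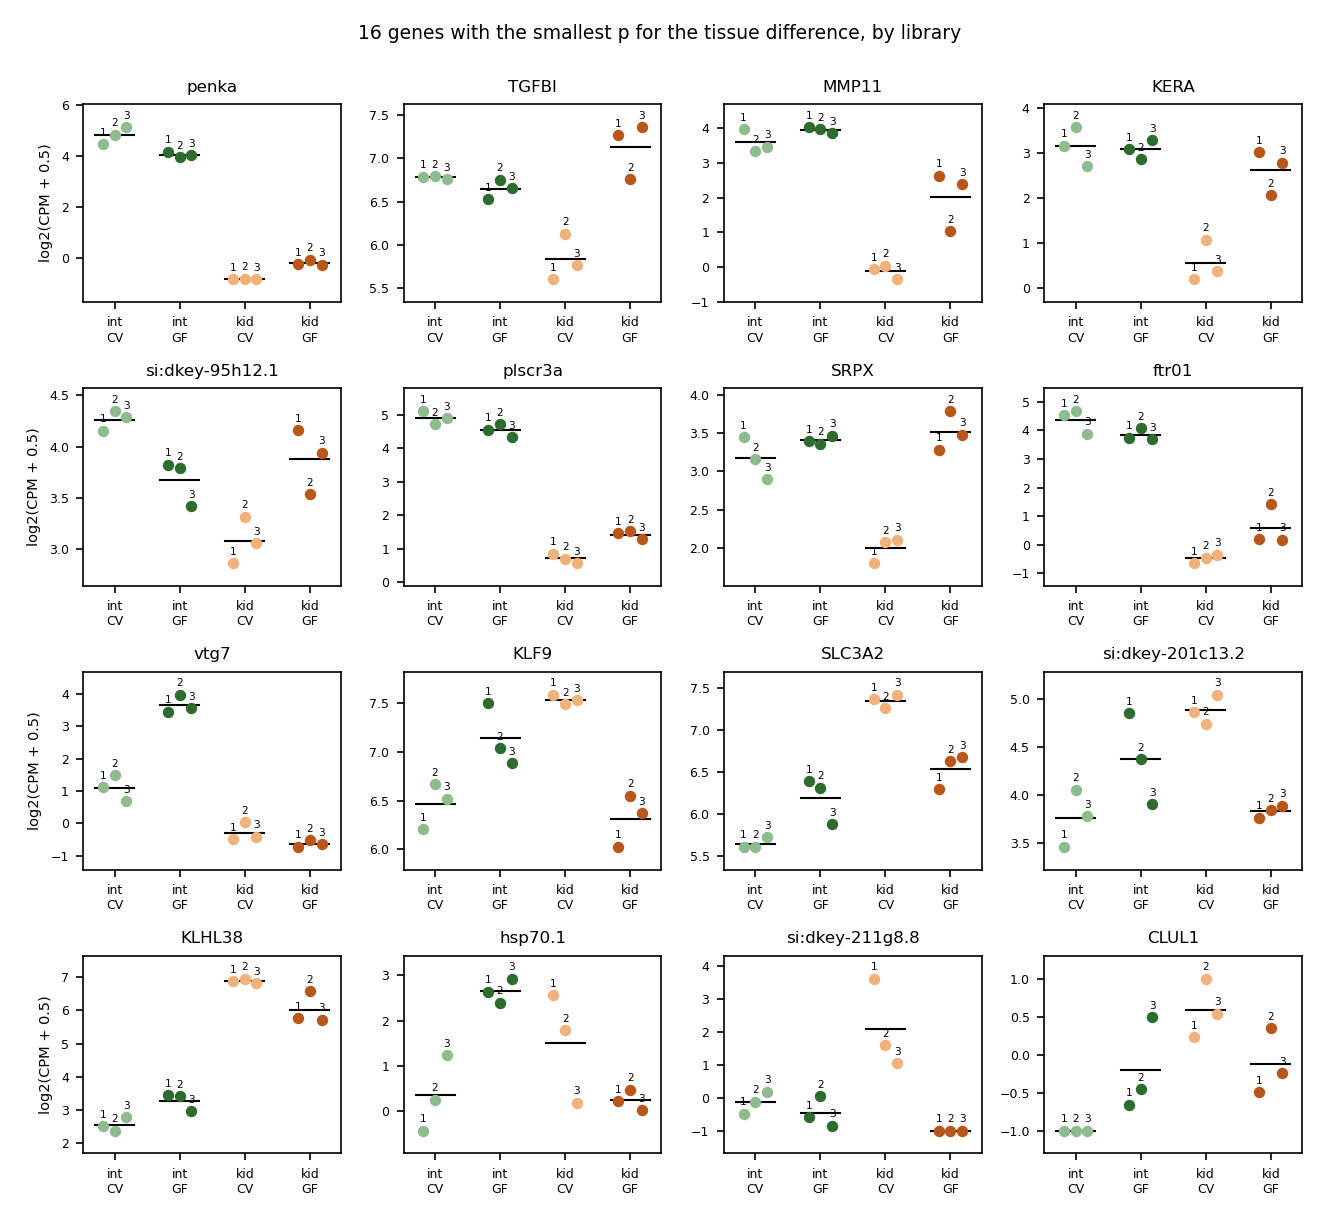
Level of the 16 genes with the smallest p for the tissue difference, among genes with a symbol, in each of the 12 libraries, as log2(CPM + 0.5), with replicate numbers above the points and group means as lines (int, intestine; kid, kidney). In the upper 2 lines of panels GF stood higher relative to CV in the kidney, and in the lower 2 in the intestine.

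KLF9, FKBP5 and PCK1 respond to stress hormones and feeding state, and of them only KLF9 had groups apart in opposite order in the 2 organs. None of them passed edgeR's test over the 12 libraries. KLF9, a transcription factor gene that glucocorticoid and thyroid hormone receptors switch on, stood at 73.4, 102 and 91.3 CPM in CV intestine and 181, 131 and 118 CPM in GF intestine. In the other organ it stood at 192, 179 and 185 CPM in CV kidney and 64.7, 93.4 and 82.3 CPM in GF kidney. All 3 GF libraries were thus above every CV library in the intestine and below every CV library in the kidney, with a germ-free difference of 0.69 (SE 0.21) and −1.21 (SE 0.21). The tissue difference of KLF9 was −1.903 (SE 0.30, edgeR adjusted p = 0.143). It passed in DESeq2 (adjusted p = 5.67e-06), in voom with quality weights (adjusted p = 0.0138) and in edgeR without the 3 libraries (−2.15, adjusted p = 0.028). It did not pass in voom without weights (adjusted p = 0.271) or in edgeR with the replicate block (adjusted p = 0.999). Over the 12 fits that each left out 1 library it ran from −2.08 to −1.70.

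FKBP5, whose product holds back the glucocorticoid receptor and whose transcription that receptor raises, stood at 67.6, 124 and 173 CPM in CV intestine and 265, 157 and 115 CPM in GF intestine. Its kidney levels were 164, 162 and 155 CPM in CV kidney and 49.2, 75.2 and 50.3 CPM in GF kidney. The kidney groups were apart with GF lower, whereas the intestine groups overlapped, intestine CV replicate 1 lying lowest and GF replicate 1 highest. The tissue difference was −2.02 (SE 0.48, edgeR adjusted p = 0.803; DESeq2 adjusted p = 0.032). PCK1, the enzyme gene that commits carbon to glucose synthesis, stood at 1784, 1987 and 2012 CPM in CV intestine and 2488, 2587 and 2279 CPM in GF intestine, and at 303, 424 and 592 CPM in CV kidney and 106, 347 and 141 CPM in GF kidney. Its GF libraries were all higher in the intestine and overlapped CV in the kidney, where GF replicate 2 lay within the CV range (tissue difference −1.496, SE 0.53, edgeR adjusted p = 0.859; −2.46 with an adjusted p of 0.028 without the 3 libraries).

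The glucocorticoid target list as a whole did not uniformly show the direction of KLF9. Of its 37 genes tested, 0 were called and 24 had a negative tissue difference (64.9%, against 49.0% of all genes). At an unadjusted p under 0.05, 9 were negative (24.3% of the list, against 2.4% of all genes) and 3 positive (8.11%, against 3.37%). The median tissue difference was −0.21, against 0.01 over all genes tested, −0.52 without kidney GF replicate 2, −0.09 without kidney CV replicate 3 and −0.66 without the 3 libraries. One of the 3 positive genes was ANGPTL4, a secreted inhibitor of lipoprotein lipase, also a target of fatty acid receptors. It stood at 143, 101 and 65.3 CPM in CV intestine and 106, 108 and 83 CPM in GF intestine, overlapping. In the kidney ANGPTL4 stood at 21.7, 36 and 37.7 CPM in CV kidney and 79.6, 58.7 and 83.5 CPM in GF kidney, with GF higher in every library (tissue difference 1.28, SE 0.40, edgeR adjusted p = 0.846).

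The amino acid transport genes SLC3A2 and SLC43A2 had the same order as KLF9. SLC3A2, the heavy chain that brings several amino acid exchangers to the cell surface, stood at 48.2, 48.3 and 52.1 CPM in CV intestine and 83.4, 79 and 58.3 CPM in GF intestine. In the kidney SLC3A2 stood at 165, 154 and 171 CPM in CV kidney and 78.1, 98.6 and 102 CPM in GF kidney. The groups did not overlap in either organ and lay in opposite order, a tissue difference of −1.38 (SE 0.25) that edgeR did not call (adjusted p = 0.467). DESeq2 (adjusted p = 9.71e-05), voom with quality weights (0.0387) and edgeR without the 3 libraries (0.038) called it. Voom without weights (adjusted p = 0.757) and edgeR with the replicate block (0.999) did not. SLC43A2, a transporter of large neutral amino acids whose symbol 2 gene IDs share (here ENSDARG00000036848), stood at 39.9, 33.1 and 39.3 CPM in CV intestine and 64.4, 59.19 and 49.3 CPM in GF intestine. In the kidney SLC43A2 stood at 94.6, 103 and 82.7 CPM in CV kidney and 69, 81.7 and 70.5 CPM in GF kidney. It too was apart in opposite order in the organs (−0.97, SE 0.23, edgeR adjusted p = 0.803; DESeq2 adjusted p = 0.032). Its nearest kidney libraries were 82.7 CPM in CV and 81.7 CPM in GF, a near tie.

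KLHL38, a kelch-like gene known mainly from striated muscle and also shared by 2 gene IDs (here ENSDARG00000040278), had the same order. It stood at 5.21, 4.72 and 6.44 CPM in CV intestine and 10.5, 10.3 and 7.36 CPM in GF intestine. In the kidney KLHL38 stood at 117, 124 and 113 CPM in CV kidney and 53.6, 95.4 and 52.2 CPM in GF kidney. In the kidney GF replicate 2 lay close to CV and the other 2 GF libraries far below, and the tissue difference was −1.59 (SE 0.34, edgeR adjusted p = 0.753). Without kidney GF replicate 2 it was −1.98 and was called (adjusted p = 0.0327), and without the 3 libraries −2.10 (adjusted p = 0.0181). The uncoupling protein gene ucp3, which is used in muscle during fasting, stood at 11.6, 12.5 and 19.6 CPM in CV intestine and 23.4, 22.9 and 16.2 CPM in GF intestine. In the kidney ucp3 stood at 63.5, 109.5 and 91.6 CPM in CV kidney and 39, 64.3 and 39.1 CPM in GF kidney. Its groups overlapped in both organs, and its tissue difference of −1.41 (SE 0.39, edgeR adjusted p = 0.846) was −2.05 (adjusted p = 0.0347) without the 3 libraries. The unnamed gene si:dkey-201c13.2 stood at 10.5, 16.1 and 13.3 CPM in CV intestine and 28.5, 20.2 and 14.5 CPM in GF intestine. In the kidney si:dkey-201c13.2 stood at 28.7, 26.3 and 32.6 CPM in CV kidney and 13.1, 13.9 and 14.3 CPM in GF kidney. Its kidney groups were apart and its intestine groups overlapped through GF replicate 3 (−1.75, SE 0.33, edgeR adjusted p = 0.528; DESeq2 adjusted p = 0.00304).

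Genes of the circadian clock, the daily transcription loop, were not lower in GF kidney as a group: 21 of 47 were lower and 26 higher, with a kidney median of 0.04. Those named here had a negative tissue difference. The repressor nr1d2a stood at 204, 144 and 169 CPM in CV kidney and 69.5, 80.6 and 91.9 CPM in GF kidney, apart. In the intestine nr1d2a stood at 74.4, 125 and 106 CPM in CV intestine and 101, 135 and 104 CPM in GF intestine, overlapping, a tissue difference of −1.25 (SE 0.31, edgeR adjusted p = 0.846). The activator npas2 was apart in both organs, at 9.25, 12.2 and 12 CPM in CV intestine and 13.7, 12.7 and 13.7 CPM in GF intestine. In the kidney npas2 stood at 8.53, 4.47 and 4.56 CPM in CV kidney and 1.55, 3.11 and 3.02 CPM in GF kidney (−1.46, SE 0.42, adjusted p = 0.846). Its nearest intestine libraries were 12.2 CPM in CV and 12.7 CPM in GF, a narrow gap. NFIL3, which opposes the output activators of the clock, overlapped in both organs, with 56.9, 19.9 and 26.5 CPM in CV kidney and 10.1, 23.9 and 15.2 CPM in GF kidney. Its tissue difference of −1.41 was −0.88 without kidney CV replicate 1, its highest library. Of the 47 clock genes tested, 4 were negative and 0 positive at an unadjusted p under 0.05 (8.51% and 0%, against 2.4% and 3.37% of all genes), yet the median tissue difference was 0.0045, and −0.41 without the 3 libraries.

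**Figure D3:**
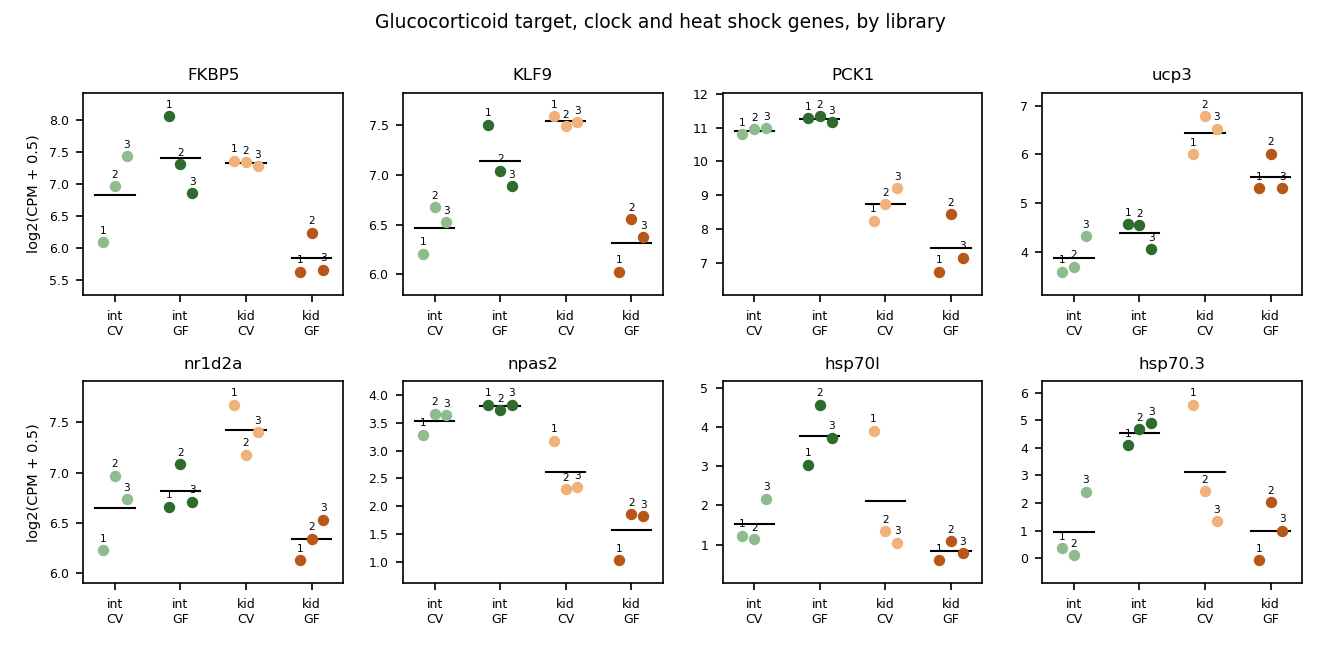
Levels of glucocorticoid target, clock and heat shock genes with ucp3 in the 12 libraries, as log2(CPM + 0.5), with replicate numbers and group means. FKBP5 and KLF9 were low in all 3 GF kidney libraries, and hsp70l and hsp70.3 were high in all 3 GF intestine libraries and in kidney CV replicate 1.

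Inducible heat shock genes gave large negative tissue differences whose size depended in part on 1 kidney library. The germ-free differences were 2.53 in intestine and −2.23 in kidney for hsp70l, and 3.48 and −3.29 for hsp70.3. For hsp70.1 they were 2.63 and −2.11. Without kidney CV replicate 1 the log2 value went from −4.76 to −3.05 for hsp70l and from −6.77 to −4.45 for hsp70.3. The chaperone gene hsp70l stood at 1.84, 1.7 and 4.01 CPM in CV intestine and 7.76, 23.4 and 12.8 CPM in GF intestine, with all GF libraries higher. In the kidney hsp70l stood at 14.6, 2.04 and 1.57 CPM in CV kidney and 1.02, 1.63 and 1.22 CPM in GF kidney, where the groups overlapped and CV replicate 1 alone was far above the rest. The tissue difference of −4.76 (SE 1.095, edgeR adjusted p = 0.803; DESeq2 adjusted p = 0.00221) was −3.05 without that library. The other copies had the same order. hsp70.3 stood at 0.78, 0.59 and 4.83 CPM in CV intestine and 16.7, 25 and 29.1 CPM in GF intestine. In the kidney hsp70.3 stood at 47, 4.92 and 2.03 CPM in CV kidney and 0.458, 3.58 and 1.49 CPM in GF kidney (−6.77, SE 1.74, edgeR adjusted p = 0.846, and −4.45 without kidney CV replicate 1). hsp70.1 was lower, at 0.248, 0.694 and 1.85 CPM in CV intestine and 5.72, 4.75 and 7.09 CPM in GF intestine. In the kidney hsp70.1 stood at 5.41, 2.95 and 0.641 CPM in CV kidney and 0.669, 0.894 and 0.521 CPM in GF kidney (−4.73, SE 1.01, adjusted p = 0.774, and −4.05 without kidney CV replicate 1). In each of the 3 the intestine groups were apart and the kidney groups overlapped. These copies are near-identical in sequence, so reads may be split or lost between them and the 3 values are not independent.

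The wider heat shock and stress list leaned the same way by less: of 41 genes tested, 27 were negative (65.9%, against 49.0% of all genes). At an unadjusted p under 0.05, 6 were negative (14.6% of the list, against 2.4% of all genes). The median tissue difference was −0.13, and 0.03 without kidney CV replicate 1. Immediate early genes, the first transcripts after a stimulus, were lower in GF in both organs (medians −0.36 in intestine and −0.65 in kidney over 41 genes). Of the 41, 26 were lower in both, against 6707 of all 22368 genes. The median tissue difference of the 41 genes, −0.32, was −0.0019 without intestine GF replicate 3 and 0.0018 without the 3 libraries.

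Several of the 16 genes had so few reads in an organ that the fitted value rests on counting. vtg7, a yolk protein precursor gene, stood at 1.67, 2.33 and 1.11 CPM in CV intestine and 10.5, 15.3 and 11.3 CPM in GF intestine, all GF libraries being far above CV. In the kidney it was near the limit, with 6, 14 and 7 reads in CV kidney and 3, 5 and 4 reads in GF kidney, apart with GF lower. The tissue difference of vtg7 was −4.02 (SE 0.62, edgeR adjusted p = 0.143), most of it from the intestine (2.86, SE 0.37). DESeq2 called vtg7 (adjusted p = 0.00016). Voom without weights (adjusted p = 0.935) and edgeR with the replicate block (0.33) did not. CLUL1, a clusterin-like gene, had 0, 0 and 0 reads in CV intestine and 5, 7 and 34 reads in GF intestine. Against a floor of 3 reads over the CV group (0.0316 CPM), GF intestine was at least 13.9-fold higher. Of the 46 reads, 34 were in intestine GF replicate 3, and without that library the bound was 5.62-fold. The same library stood highest in brain and retina markers (790.8 CPM), whose part in this value was not tested. Its kidney groups overlapped, at 0.676, 1.51 and 0.961 CPM in CV kidney and 0.211, 0.778 and 0.348 CPM in GF kidney, and the tissue difference had an edgeR adjusted p of 0.803 (DESeq2 adjusted p = 0.021).

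The unnamed gene si:dkey-211g8.8 had 333, 67 and 44 reads in CV kidney and 0, 0 and 0 reads in GF kidney. GF kidney was at least 148-fold lower than CV against a floor of 3 reads over the GF group, although CV replicate 1 held most of the reads and the bound was 56.3-fold without it. In the intestine the groups overlapped, at 0.213, 0.416 and 0.634 CPM in CV intestine and 0.161, 0.528 and 0.0537 CPM in GF intestine (tissue difference: edgeR adjusted p = 0.803, DESeq2 adjusted p = 0.00115). PRTG, an adhesion protein gene of the immunoglobulin superfamily, was low but apart in opposite order in both organs, at 0.177, 0.416 and 0.158 CPM in CV intestine and 1.32, 1.65 and 0.859 CPM in GF intestine. In the kidney PRTG stood at 0.498, 0.795 and 1.1 CPM in CV kidney and 0.282, 0.389 and 0.174 CPM in GF kidney. Its tissue difference was −3.83 (SE 0.87, edgeR adjusted p = 0.803; DESeq2 adjusted p = 0.021).

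Several extracellular matrix genes lay on the other side, with GF higher in the kidney and little difference in the intestine. TGFBI, a matrix protein that transforming growth factor beta induces, stood at 110.3, 111 and 108 CPM in CV intestine and 91.7, 107 and 100.4 CPM in GF intestine. In the kidney TGFBI stood at 48.2, 69.6 and 54.1 CPM in CV kidney and 153, 108 and 164 CPM in GF kidney. All GF kidney libraries were above every CV kidney library, whereas the intestine libraries lay within a narrow band with GF just below CV. The germ-free difference was 1.31 (SE 0.20) in kidney and −0.13 (SE 0.19) in intestine, and the tissue difference 1.44 (SE 0.27, edgeR adjusted p = 0.528). DESeq2 (adjusted p = 0.00221) and voom with quality weights (0.0387) called it. Voom without weights (adjusted p = 0.831) and edgeR with the replicate block (0.999) did not.

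MMP11, a matrix metalloproteinase of stromal cells, had the largest kidney difference of the matrix genes among the 16. It stood at 15.2, 9.58 and 10.6 CPM in CV intestine and 15.9, 15.2 and 14 CPM in GF intestine. In the kidney MMP11 stood at 0.462, 0.53 and 0.285 CPM in CV kidney and 5.7, 1.56 and 4.73 CPM in GF kidney. The kidney groups were apart, with GF replicate 2 lowest of the GF libraries, and the intestine groups overlapped (tissue difference 2.87, SE 0.57, edgeR adjusted p = 0.585). Without kidney GF replicate 2 it was 3.21 and was called (adjusted p = 0.0327), and DESeq2 called it with all libraries (adjusted p = 0.00473). The small proteoglycan gene KERA, which spaces collagen fibrils, stood at 8.4, 11.3 and 5.97 CPM in CV intestine and 7.95, 6.76 and 9.18 CPM in GF intestine. In the kidney KERA stood at 0.64, 1.59 and 0.783 CPM in CV kidney and 7.54, 3.65 and 6.36 CPM in GF kidney. Its kidney groups were apart and its intestine groups overlapped (2.65, SE 0.53, edgeR adjusted p = 0.585; DESeq2 adjusted p = 0.00508).

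The sushi repeat gene SRPX had kidney groups apart and intestine groups overlapping, at 2.99, 3.71 and 3.81 CPM in CV kidney and 9.23, 13.3 and 10.6 CPM in GF kidney. In the intestine SRPX stood at 10.4, 8.43 and 6.97 CPM in CV intestine and 10.0, 9.79 and 10.6 CPM in GF intestine. Here kidney GF replicate 2 was the highest library (1.42, SE 0.31, edgeR adjusted p = 0.774; DESeq2 adjusted p = 0.0397). TNC, the adhesion-modulating tenascin C, stood at 27.63, 28.5 and 42 CPM in CV kidney and 43.9, 58 and 46.2 CPM in GF kidney. In the intestine TNC stood at 37.8, 44.6 and 36.9 CPM in CV intestine and 33.7, 36 and 35.3 CPM in GF intestine, apart in opposite order (0.78, SE 0.26, adjusted p = 0.859). Its nearest intestine libraries were 36.9 CPM in CV and 36 CPM in GF, a narrow gap. The proteoglycan gene OGN was apart in the kidney, at 21, 26 and 33 CPM in CV kidney and 49.9, 34.5 and 65.5 CPM in GF kidney, and overlapped in the intestine, at 34.2, 26.1 and 32.8 CPM in CV intestine and 33.2, 30.2 and 28.2 CPM in GF intestine (0.93, SE 0.33, adjusted p = 0.859). Both symbols are shared by 2 gene IDs, and the values are of the one with the smaller p (ENSDARG00000078362 and ENSDARG00000044132).

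Over the whole matrix list, 49 of 59 genes tested had a positive tissue difference (83.1%, against 51.0% of all genes) and 0 were called. At an unadjusted p under 0.05, 11 were positive (18.6% of the list, against 3.37% of all genes) and 1 negative. The median was 0.57, and the medians within the organs were 0.15 in intestine and 0.59 in kidney. Most of the 59 stood higher in GF in each organ, 43 in intestine and 53 in kidney, against 9863 and 11345 of all 22368 genes. In both organs 39 were higher in GF, against 5547 of all genes. The mean level of the list relative to the mean of the organ was −0.99, −0.01 and −0.12 in CV kidney and 0.64, −0.25 and 0.73 in GF kidney on the log2 scale. Kidney CV replicate 1 was the lowest and GF replicates 1 and 3 the highest, while GF replicate 2 lay below 2 of the CV libraries. Without kidney CV replicate 1 the median tissue difference was 0.32, and without the 3 libraries 0.39. Skin markers, 7 genes, were low in the same library, summing to 3245, 20915 and 16947 CPM in CV kidney and 14885, 12892 and 15980.4 CPM in GF kidney, and their part in the matrix values was not tested.

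Most endothelial genes stood higher in GF kidney, and their intestine median was 0.02. lyve1b, the hyaluronan receptor of lymphatic and venous endothelium, stood at 3.56, 3.44 and 3.84 CPM in CV kidney and 6.37, 6.69 and 6.01 CPM in GF kidney. In the intestine lyve1b stood at 1.45, 3.68 and 2.9 CPM in CV intestine and 1.61, 1.81 and 1.72 CPM in GF intestine, apart in the kidney and overlapping in the intestine. Its germ-free difference was 0.81 in kidney and −0.64 in intestine, so both organs entered the tissue difference (1.46, SE 0.44, edgeR adjusted p = 0.846). The vessel lectin clec14a was apart in the kidney, at 11.4, 11.8 and 13.8 CPM in CV kidney and 18.2, 20.3 and 19.3 CPM in GF kidney, and overlapped in the intestine, at 10.1, 10.0 and 13.7 CPM in CV intestine and 9.59, 11.3 and 8.08 CPM in GF intestine (0.87, SE 0.27, adjusted p = 0.846). stab2, a scavenger receptor of the same cells, was apart in the kidney at 15, 13.3 and 14.2 CPM in CV kidney and 27.39, 20.4 and 31.6 CPM in GF kidney and overlapped in the intestine at 3.12, 3.23 and 3.78 CPM in CV intestine and 3.2, 4.29 and 4.27 CPM in GF intestine (0.68, SE 0.29, adjusted p = 0.859). Of 46 endothelial genes tested, 42 were higher in GF kidney and 24 in GF intestine, against 11345 and 9863 of all 22368 genes. The tissue difference was positive in 76.1% of the list, against 51.0% of all genes. Its median was 0.29, and it was 0.13 without kidney CV replicate 1, 0.41 without intestine CV replicate 1 and 0.09 without the 3 libraries.

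Erythroid genes leaned the same way. The erythroid list covers heme synthesis, iron uptake and globins. Of its 40 genes, 30 had a positive tissue difference (75%, against 51.0% of all genes). The median was 0.32 (0.18 without kidney GF replicate 1, 0.50 without kidney CV replicate 1 and 0.50 without the 3 libraries). tfr1a, the transferrin receptor that erythroid cells need for iron, stood at 5.26, 5 and 7.08 CPM in CV kidney and 18.3, 11.55 and 11.6 CPM in GF kidney, apart. In the intestine tfr1a stood at 7.55, 15.7 and 12.3 CPM in CV intestine and 14.3, 10.3 and 11 CPM in GF intestine, overlapping (1.25, SE 0.40, edgeR adjusted p = 0.859). ALAD, an early enzyme of heme synthesis, stood at 6.44, 5.98 and 5.77 CPM in CV kidney and 8.38, 9.68 and 8.31 CPM in GF kidney, apart. In the intestine ALAD stood at 22.9, 15.4 and 19.5 CPM in CV intestine and 15.3, 18 and 17.9 CPM in GF intestine, overlapping (0.71, SE 0.26, adjusted p = 0.859). blvrb, a biliverdin and flavin reductase of red cells, overlapped in both organs (0.77, SE 0.30, adjusted p = 0.859). The 8 erythroid marker genes summed to 470.4, 295 and 256 CPM in CV kidney and 849, 237 and 581 CPM in GF kidney, so GF replicate 2 was the lowest of the kidney libraries and GF replicate 1 the highest.

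A peptide gene of enteroendocrine cells and neurons had the smallest p of all genes tested. penka, which encodes a precursor of enkephalin opioid peptides, stood at 21.8, 28.2 and 34.8 CPM in CV intestine and 17.6, 15.2 and 16.1 CPM in GF intestine, with all GF libraries lower. In the kidney it was near the limit of detection, with 2, 2 and 2 reads in CV kidney and 10, 12 and 10 reads in GF kidney, a GF to CV ratio of 5.32 (95% counting interval 2.19 to 15.6). Its tissue difference was 3.15 (SE 0.43, edgeR adjusted p = 0.114; DESeq2 adjusted p = 0.0194; voom with quality weights adjusted p = 0.46). Those 38 kidney reads carry the whole kidney side of the value. The related symbol PENK stood at 32.2, 11.2 and 10.2 CPM in CV intestine and 18.2, 15.7 and 12.4 CPM in GF intestine. In the kidney PENK stood at 0.142, 0.379 and 0.641 CPM in CV kidney and 1.69, 1.48 and 0.626 CPM in GF kidney, overlapping in both organs (1.91, SE 0.76, edgeR adjusted p = 0.859, and 1.17 without intestine CV replicate 1).

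VIP, the vasoactive intestinal peptide of enteric neurons, stood at 10.9, 8.68 and 11 CPM in CV intestine and 6.82, 7.12 and 5.42 CPM in GF intestine, with every GF library lower, and at 7.25, 12.4 and 12.3 CPM in CV kidney and 12, 24.6 and 15.2 CPM in GF kidney, overlapping. Its tissue difference was 1.36 (SE 0.40, edgeR adjusted p = 0.846). The enteroendocrine list had 26 of 36 genes positive (72.2%, against 51.0% of all genes), 4 of them at an unadjusted p under 0.05 (11.11% of the list, against 3.37% of all genes). The median tissue difference of the list was 0.60. That median was 0.02 without kidney GF replicate 2, where the list stood highest.

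Genes that burn fat had opposite signs in the organs more often than not. Of the 42 fatty acid oxidation and fasting genes tested, 34 had opposite signs, against 45.2% of all genes. Of these 34, 27 had GF higher in kidney and lower in intestine, which held for 5795 of all 22368 genes. At an unadjusted p under 0.05, 10 were positive (23.8% of the list, against 3.37% of all genes) and 2 negative (4.76%, against 2.4%), with 0 called. HADHA, a subunit of the mitochondrial trifunctional enzyme, stood at 21.5, 18 and 18.9 CPM in CV kidney and 34.9, 32.1 and 27 CPM in GF kidney, apart. In the intestine HADHA stood at 132, 109 and 112 CPM in CV intestine and 113, 107 and 89 CPM in GF intestine, overlapping (0.88, SE 0.23, edgeR adjusted p = 0.846). The long-chain acyl-CoA dehydrogenase gene ACADL was apart in opposite order, at 19.7, 20.7 and 22.4 CPM in CV kidney and 29.6, 30.0 and 28.3 CPM in GF kidney. In the intestine ACADL stood at 129, 98.9 and 113 CPM in CV intestine and 94.9, 96.5 and 78.8 CPM in GF intestine (0.82, SE 0.22, adjusted p = 0.846). cpt1ab, a carnitine palmitoyltransferase that admits fatty acids to mitochondria, stood at 15.8, 20.7 and 18.1 CPM in CV kidney and 50.1, 25 and 57.7 CPM in GF kidney. In the intestine cpt1ab stood at 183, 166 and 199 CPM in CV intestine and 173, 204 and 136 CPM in GF intestine, apart in the kidney only (1.38, SE 0.38, adjusted p = 0.846). The median tissue difference of the list was 0.44, ran from 0.30 to 0.48 over fits that each left out 1 library, and was 0.16 without the 3 libraries. The 13 liver markers, none at 0 in either organ, summed to 6924, 14201 and 12717 CPM in CV kidney and 11728, 17502 and 14523 CPM in GF kidney, lowest in kidney CV replicate 1 and highest in kidney GF replicate 2. In the intestine they summed to 35351, 22543 and 29741 CPM in CV intestine and 33299, 33940.0 and 26919 CPM in GF intestine. Their part in the fatty acid oxidation, complement, bile acid enzyme and creb3l3a values was not tested.

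The 13 mitochondrially encoded genes were all lower in GF intestine, and 11 were higher in GF kidney, against 12505 and 11345 of all 22368 genes. Their median tissue difference was 0.38, 0 of 13 had an unadjusted p under 0.05, and without the 3 libraries the median was 0.14. The mean level of the list relative to the organ was −0.02, 0.39 and 0.05 in CV intestine and −0.03, 0.0002 and −0.40 in GF intestine. CV replicate 2 and GF replicate 3 thus lay furthest from the organ mean. The 13 share transcripts of 1 genome and are not independent of each other.

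Lipid synthesis leaned the other way. Of 39 cholesterol and fatty acid synthesis genes tested, 30 were negative (76.9%, against 49.0% of all genes). At an unadjusted p under 0.05, 5 were negative (12.8% of the list, against 2.4% of all genes). The median was −0.34 (−0.53 without kidney GF replicate 2, −0.25 without intestine CV replicate 2 and −0.54 without the 3 libraries). srebf2, the transcription factor that turns on cholesterol synthesis, stood at 64.9, 61.7 and 44.7 CPM in CV intestine and 60.2, 96.2 and 111 CPM in GF intestine. In the kidney srebf2 stood at 58.6, 45.5 and 42.9 CPM in CV kidney and 37.6, 36.4 and 45.8 CPM in GF kidney, overlapping in both organs (−0.94, SE 0.33, edgeR adjusted p = 0.859). ABCG1, a cholesterol exporter, overlapped in both organs, at 0.283, 0.486 and 0.158 CPM in CV intestine and 0.591, 0.198 and 1.93 CPM in GF intestine. In the kidney ABCG1 stood at 3.95, 3.33 and 4.81 CPM in CV kidney and 1.76, 3.38 and 1.7 CPM in GF kidney (−2.39, SE 0.93, adjusted p = 0.859, and −1.21 without intestine GF replicate 3). The elongase gene ELOVL2, which makes long polyunsaturated fatty acids, went against the list: it was apart in the kidney, at 2.6, 4.35 and 4.95 CPM in CV kidney and 6.83, 8.05 and 7.82 CPM in GF kidney, and overlapped in the intestine, at 123, 115 and 126 CPM in CV intestine and 132, 123 and 117 CPM in GF intestine (0.90, SE 0.29, adjusted p = 0.846). creb3l3a, a transcription factor gene of liver and intestine that controls lipoprotein genes, was apart in the kidney at low levels, 0.356, 0.871 and 0.961 CPM in CV kidney and 2.43, 2.8 and 1.25 CPM in GF kidney, and overlapped at 57.9, 65.3 and 42.9 CPM in CV intestine and 42, 34.8 and 42.9 CPM in GF intestine (2.03, SE 0.46, adjusted p = 0.803; DESeq2 adjusted p = 0.0391).

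Interferon response genes were lower in GF in both organs, further so in the kidney. Of 51 genes tested, 46 were lower in both, against 6707 of all 22368 genes, and the medians were −0.91 in intestine and −1.69 in kidney. A negative tissue difference was found in 40, against 49.0% of all genes. At an unadjusted p under 0.05, 7 were negative (13.7% of the list, against 2.4% of all genes) and 0 positive, with 0 called, and the median tissue difference was −0.67. ifi27.2, of a family of small interferon-induced membrane proteins, stood at 23.4, 5.19 and 5.77 CPM in CV kidney and 0.211, 1.17 and 0.278 CPM in GF kidney, apart. In the intestine ifi27.2 stood at 1.1, 3.5 and 1.98 CPM in CV intestine and 1.16, 3.17 and 0.295 CPM in GF intestine, overlapping (−3.86, SE 1.27, edgeR adjusted p = 0.859). The antiviral dynamin-like gene mxb stood at 2.06, 1.29 and 1.71 CPM in CV kidney and 0.141, 0.233 and 0.139 CPM in GF kidney, apart. In the intestine mxb stood at 0.532, 0.798 and 0.713 CPM in CV intestine and 0.134, 0.824 and 0.215 CPM in GF intestine, overlapping (−2.46, SE 0.94, adjusted p = 0.859, and −1.34 without intestine GF replicate 2). nlrc5, which activates genes of antigen presentation in mammals, had 2, 2 and 6 reads in CV intestine and 6, 6 and 10 reads in GF intestine, meeting at 6 reads. In the kidney nlrc5 stood at 5.76, 1.29 and 1.6 CPM in CV kidney and 1.27, 1.24 and 1.04 CPM in GF kidney, apart by a narrow gap (−2.28, SE 0.91, adjusted p = 0.859, and −1.35 without kidney CV replicate 1). Members of the ifi27 family are similar enough that reads may be split between them.

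For RSAD2 and isg15, commonly used readouts of interferon signalling, the tissue difference was of the size of its error. RSAD2, the antiviral enzyme viperin, stood at 1.42, 8.29 and 7.89 CPM in CV intestine and 0.322, 1.85 and 0.322 CPM in GF intestine. In the kidney RSAD2 stood at 3.31, 5.79 and 5.98 CPM in CV kidney and 0.106, 0.156 and 0.487 CPM in GF kidney. The germ-free difference was −2.84 in intestine and −4.30 in kidney, with a tissue difference of −1.46 (SE 1.13, edgeR adjusted p = 0.877) that was −0.13 without intestine GF replicate 2. isg15, a ubiquitin-like modifier, stood at 7.26, 11.6 and 12.6 CPM in CV intestine and 4.14, 9.5 and 1.72 CPM in GF intestine. In the kidney isg15 stood at 10.4, 8.18 and 6.76 CPM in CV kidney and 1.41, 4.67 and 1.81 CPM in GF kidney (−0.65, SE 0.77, adjusted p = 0.924, and 0.15 without intestine GF replicate 2). The mean level of the list relative to the organ was 0.02, 0.58 and 0.86 in CV intestine and −0.61, 0.02 and −0.88 in GF intestine, and 1.502, 0.41 and 0.45 in CV kidney and −0.98, −0.47 and −0.92 in GF kidney. Kidney CV replicate 1 was by far the highest of all, and the median tissue difference was −0.24 without it and −0.35 without the 3 libraries. Macrophage and neutrophil markers, 14 genes of which 1 was at 0 in each organ, were highest in that library as well, summing to 194, 84.3 and 82.7 CPM in CV kidney and 92.9, 97.2 and 86.7 CPM in GF kidney, and their part in the interferon values was not tested.

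Antigen presentation genes showed the same dependence, with 25 of 30 negative (83.3%, against 49.0% of all genes), a median of −0.48, and 0.13 without kidney CV replicate 1. Of 40 inflammation genes, 28 were lower in GF in both organs, against 6707 of all 22368 genes. The inflammation list had a median tissue difference of −0.06. That median was 0.31 without kidney CV replicate 1, −0.38 without kidney GF replicate 2 and 0.08 without the 3 libraries. Complement and acute phase genes had 4 positive and 0 negative at an unadjusted p under 0.05 of 36 tested (11.11% and 0%, against 3.37% and 2.4% of all genes). Their median was 0.13, and it turned to −0.11 without kidney GF replicate 2 and to −0.31 without the 3 libraries. c7a, a subunit of the complement pore, stood at 8, 11.4 and 11.3 CPM in CV kidney and 23.9, 17.4 and 28.4 CPM in GF kidney, apart. In the intestine c7a stood at 8.5, 11.7 and 13.7 CPM in CV intestine and 13.16, 12.9 and 8.19 CPM in GF intestine, overlapping (1.17, SE 0.37, edgeR adjusted p = 0.846). The C1q chain gene c1qa, expressed by macrophages, was apart in opposite order at low levels, 0.709, 1.04 and 0.792 CPM in CV intestine and 0.537, 0.594 and 0.537 CPM in GF intestine and 1.49, 0.568 and 0.57 CPM in CV kidney and 2.25, 2.33 and 1.53 CPM in GF kidney (1.82, SE 0.68, adjusted p = 0.859). Its nearest kidney libraries were 1.49 CPM in CV and 1.53 CPM in GF, a near tie. The lectin gene mbl2 overlapped in both organs (1.09, SE 0.43, adjusted p = 0.859).

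**Figure D4:**
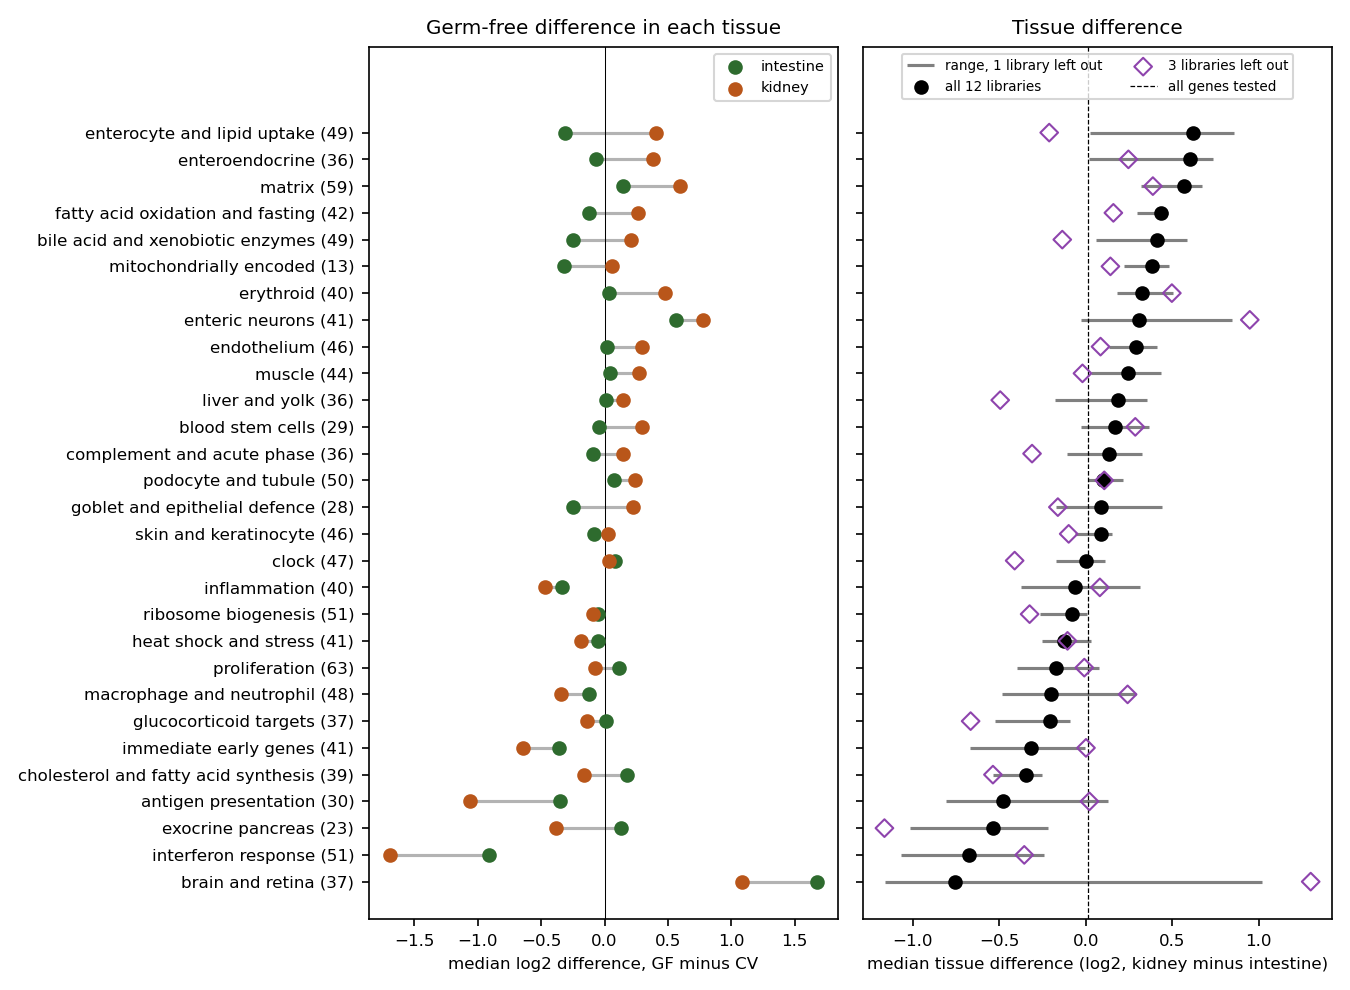
Median germ-free difference (left) and median tissue difference (right, log2) of 29 gene lists, with the number of genes tested in brackets. Grey bars span the fits that each left out 1 of 12 libraries, diamonds are the fit without kidney CV replicate 1, kidney GF replicate 2 and intestine GF replicate 3, and the dashed line is the median of all genes tested (0.01). Matrix, fatty acid oxidation, interferon and cholesterol lists kept their sign in every fit shown, whereas the enterocyte and brain lists did not.

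Lists of the epithelium and of neighbouring organs depended on single libraries. Enterocyte and lipid uptake genes had the most positive median, 0.62 over 49 genes, 41 of them positive (83.7%, against 51.0% of all genes). The mean level of the list was −0.28, −0.09 and 0.19 in CV kidney and −0.05, 0.93 and −0.69 in GF kidney. It was highest in GF replicate 2 and lowest in GF replicate 3, and the median tissue difference was 0.02 without GF replicate 2 and −0.21 without the 3 libraries. In that library the 17 intestinal markers summed to 735 CPM, against 270 to 429 CPM in the other 5 kidney libraries, and FABP2, the fatty acid binding protein of enterocytes, stood at 67.5 CPM against 9.18 to 25.7 CPM. The part of such gut RNA in the kidney values was not tested. The bile acid and xenobiotic enzyme list moved with the same library (median 0.41, and 0.06 without it).

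Exocrine pancreas genes had a median tissue difference of −0.54 over 23 genes, with 0 at an unadjusted p under 0.05. The 12 pancreas markers summed to 67187, 74473 and 78188 CPM in CV kidney and 46724, 79067 and 37493 CPM in GF kidney, GF replicate 2 being close to the CV libraries and the other 2 GF libraries lower. The median was −1.01 without kidney GF replicate 2 and −0.22 without intestine GF replicate 2. Brain and retina genes had the most negative median, −0.75 over 37 genes, which was 1.02 without intestine GF replicate 3. That library held 790.8 CPM of 21 brain and retina markers, against 45.8 to 64 CPM in the other 5 intestine libraries and 72.5 to 214 CPM in the kidney. The cone opsin gene opn1sw2 of photoreceptors stood at 0.213, 0 and 0.211 CPM in CV intestine and 0.0537, 0.198 and 42.4 CPM in GF intestine, so 1 library held nearly all of it. Enteric neuron genes had a median of 0.31, which was 0.84 without that library and −0.03 without kidney GF replicate 1.

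3 genes of neurons and glia were among the 9 that edgeR called without the 3 libraries, and were chosen here after their values were seen. ELAVL3, an RNA-binding protein gene of neurons, stood at 16.8, 20.3 and 16.6 CPM in CV intestine and 17, 14.5 and 65.6 CPM in GF intestine. In the kidney ELAVL3 stood at 16.7, 12.9 and 14.3 CPM in CV kidney and 50.2, 11.2 and 40.9 CPM in GF kidney. Its tissue difference was 0.36 (SE 0.81, edgeR adjusted p = 0.961) with all libraries and 1.9 (adjusted p = 0.0281) without the 3. The tubulin gene tubb5 stood at 11.2, 11.9 and 9.42 CPM in CV intestine and 9.11, 7.42 and 56 CPM in GF intestine. In the kidney tubb5 stood at 5.26, 6.13 and 4.73 CPM in CV kidney and 21.7, 6.3 and 18.3 CPM in GF kidney (tissue difference 0.36, edgeR adjusted p = 0.968, and 2.25 with 0.0281 without the 3). SLC1A2, a glutamate transporter of glia whose symbol 2 gene IDs share, stood at 0.78, 0.174 and 0.317 CPM in CV intestine and 0.161, 0.231 and 109.5 CPM in GF intestine. In the kidney SLC1A2 stood at 8.14, 2.04 and 2.06 CPM in CV kidney and 26.8, 2.84 and 28.2 CPM in GF kidney. Its tissue difference was −4.21 with all libraries and 4.81 (adjusted p = 0.028) without the 3. In all 3 genes the high libraries were intestine GF replicate 3 and kidney GF replicates 1 and 3. The fit that called them left out the first of these, and also kidney GF replicate 2, the lowest GF kidney library in each. Brain and retina markers summed to 86.9, 78.4 and 72.5 CPM in CV kidney and 214, 78.5 and 149 CPM in GF kidney. Their part in the values of these 3 genes was not tested.

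**Figure D5:**
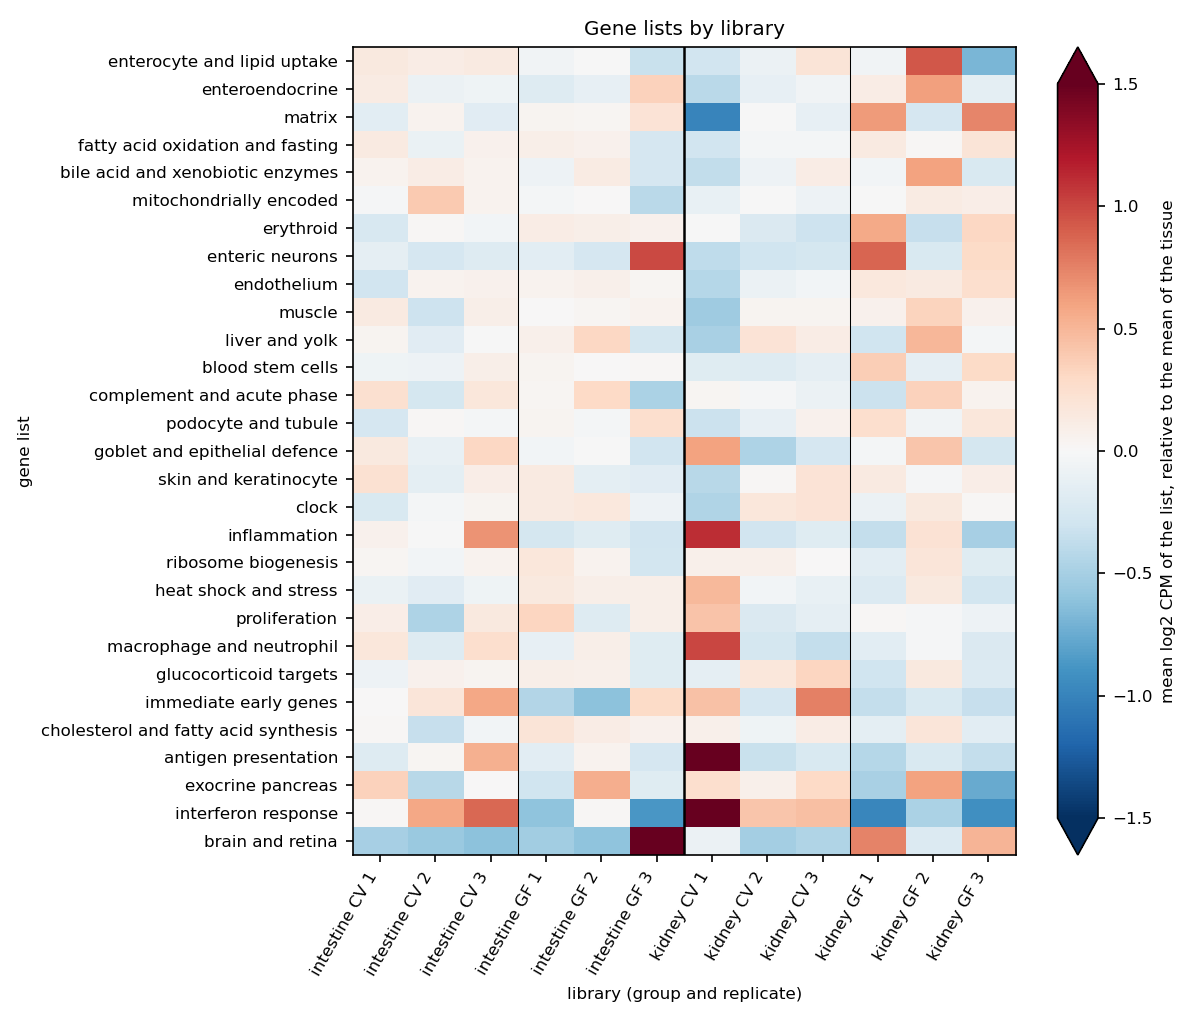
Mean log2 CPM of each of the 29 gene lists in each library, relative to the mean of the 6 libraries of its organ. Colours run from −1.5 to 1.5, and kidney CV replicate 1, kidney GF replicate 2 and intestine GF replicate 3 stand out from their own groups in several lists.

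The remaining genes of the 16 have no list here. si:dkey-95h12.1 stood at 17.3, 19.8 and 19 CPM in CV intestine and 13.6, 13.3 and 10.2 CPM in GF intestine. In the kidney si:dkey-95h12.1 stood at 6.79, 9.46 and 7.83 CPM in CV kidney and 17.4, 11.08 and 14.8 CPM in GF kidney, apart in opposite order (1.44, SE 0.30, edgeR adjusted p = 0.753; DESeq2 adjusted p = 0.0155). plscr3a, a phospholipid scramblase gene, was apart in opposite order at 34.3, 26.1 and 29.5 CPM in CV intestine and 23.1, 25.9 and 19.7 CPM in GF intestine. In the kidney plscr3a stood at 1.32, 1.14 and 0.997 CPM in CV kidney and 2.25, 2.37 and 1.95 CPM in GF kidney (1.32, SE 0.28, adjusted p = 0.753). It was the 1 gene of the 16 that DESeq2 did not call (adjusted p = 0.0601). ftr01, of the fish-specific finTRIM family of many similar genes, overlapped in the intestine, at 22.7, 25.2 and 14.2 CPM in CV intestine and 12.9, 16.4 and 12.4 CPM in GF intestine, and was apart in the kidney, at 0.142, 0.227 and 0.285 CPM in CV kidney and 0.634, 2.18 and 0.626 CPM in GF kidney (2.93, SE 0.65, adjusted p = 0.803; DESeq2 adjusted p = 0.0248).

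A further pair of genes that DESeq2 called, chosen after their values were seen, had few or 0 reads in CV kidney. enam, an enamel matrix gene in mammals, stood at 1.88, 3.12 and 4.62 CPM in CV intestine and 5.88, 3.99 and 7.65 CPM in GF intestine, overlapping. In the kidney enam stood at 0, 0.0757 and 0.285 CPM in CV kidney and 14.2, 1.13 and 4.66 CPM in GF kidney, apart (4.88, SE 1.24, edgeR adjusted p = 0.846; DESeq2 adjusted p = 0.0201). hce2l1, of the hatching enzyme family, had 0, 0 and 0 reads in CV kidney and 47, 2 and 34 reads in GF kidney, so that GF kidney was at least 27.58-fold higher against a floor of 3 reads over the CV group, and 18.2-fold without kidney GF replicate 1 (edgeR adjusted p of the tissue difference = 0.803; DESeq2 adjusted p = 0.032). In both genes kidney GF replicate 2 was the lowest of the GF libraries.

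The other lists had median tissue differences near that of all genes or within the span of single-library effects. The medians were 0.24 for muscle, 0.18 for liver and yolk, 0.17 for blood stem cells, 0.10 for podocyte and tubule, 0.09 for goblet and epithelial defence and 0.09 for skin. Ribosome biogenesis stood at −0.08, proliferation at −0.17 and macrophage and neutrophil genes at −0.20. Of these, muscle, liver, goblet, skin and macrophage lists changed sign without the 3 libraries. The podocyte and tubule list, the one nearest to the organ itself, had 5 positive and 3 negative genes of 50 at an unadjusted p under 0.05 (10% and 6%, against 3.37% and 2.4% of all genes).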

How the data were processed

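RNA was sequenced from dissected intestines and kidneys. The authors deposited whole-number read counts per gene for 32520 Ensembl genes, in 1 table of CV and GF libraries for each organ. Per the submitters' processing notes, FastQC 0.11.9, Trim Galore 0.6.7, STAR 2.7.9a and featureCounts of Subread 2.0.1 were used with the GRCz11 assembly; strandedness and the handling of multi-mapping reads are not given there. Reads of overlapping genes and near-identical copies may therefore be split or lost. A table of gene names gave symbols to 29201 of 32520 identifiers; they are printed as it gives them, many in capitals as for a human orthologue; they were matched to lists without regard to case or by stem.

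The 2 germ-free tables were joined by gene identifier, 12 libraries in 4 groups of 3. edgeR 4.0.16 in R 4.3.3 fitted 4 group means with TMM factors over the 12 libraries, the filterByExpr filter (22368 genes kept), robust dispersions and the quasi-likelihood F-test, leaving 8 residual degrees of freedom. The contrast was kidney (GF minus CV) minus intestine (GF minus CV). Benjamini-Hochberg adjusted p-values under 0.05 were called. Standard errors are the log2 difference divided by the square root of F. Intervals and floors (95%, 3 counts) cover counting error only. Replicates differed beyond sampling noise (lowest chi-square over degrees of freedom 16.5), so none was counted as a repeat. The steps were run on simulated counts, with edgeR's fitted spread and a change put into 200 well-counted genes. That run does not cover changes in genes of few reads or libraries that stand apart.

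Alternatives were other scalings and filters, DESeq2 1.42.0, voom of limma 3.58.1 without and with library quality weights, a replicate block, leaving out each library in turn, and leaving out 3 libraries together. Genes were named by rule: the 8 with the smallest p in each direction among genes with a symbol, up to 3 per list with the smallest p for the tissue difference, and some fixed genes. SLC43A2, PRTG, creb3l3a, PCK1, ucp3, enam, hce2l1, ELAVL3, tubb5 and SLC1A2 fall outside that rule and were named because an alternative called them. The comparison, the 29 lists and the named genes were chosen with earlier results of these data known.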

Additional observations from a re-analysis of the deposited data

Results flagged for a closer look

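In 8 of the 16 genes with a symbol and the smallest p, every GF library lay on one side of all CV libraries in one organ and on the opposite side in the other. Over all 22368 genes tested this held for 95 with GF higher in kidney (0.425%) and 50 with GF lower in kidney (0.224%), and picking genes by the smallest p favours such an order. None of the 8 passed edgeR's test of the tissue difference. Higher in GF kidney and lower in GF intestine were penka (tissue difference 3.15, adjusted p = 0.114, on 38 kidney reads), TGFBI (1.44, 0.528), si:dkey-95h12.1 (1.44, 0.753) and plscr3a (1.32, 0.753). For TGFBI the nearest intestine libraries were 107.4 CPM in GF and 107.9 CPM in CV, with a germ-free difference of −0.13 (SE 0.19). For plscr3a they were 25.9 CPM in GF and 26.1 CPM in CV. These intestine gaps are near ties. Lower in GF kidney and higher in GF intestine were vtg7 (−4.02, 0.143), KLF9 (−1.903, 0.143), SLC3A2 (−1.38, 0.467) and KLHL38 (−1.59, 0.753). For vtg7 the nearest kidney libraries held 5 reads in GF and 6 reads in CV.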

How the results depend on the processing

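For the tissue difference, edgeR called 0 genes under all scalings, filters, voom, the dispersion without robust fitting and the replicate block, but 24 genes were called by DESeq2, 3 by voom with quality weights and 9 without the 3 libraries; leaving out 1 library gave 0 to 2 calls, the 2 without kidney GF replicate 2. In the intestine, library size only, no filter, voom and the fit without the 3 libraries called 1 gene each, voom with quality weights 2 and DESeq2 6; leaving out 1 library gave 0 to 1. In the kidney, library size only called 1, no filter 2, the replicate block 1, DESeq2 315, voom with quality weights 137 and the fit without the 3 libraries 133; leaving out 1 library gave 0 to 28, the 28 without GF replicate 2. For the mean over both organs the counts were 288 in DESeq2, 24 in voom with quality weights, 3 with the replicate block and 39 without the 3 libraries; leaving out 1 library gave 0 to 13. The correlation of 0.324 between the organs was 0.139 without a filter, 0.234 in voom with quality weights and 0.0858 without the 3 libraries, and ran from 0.184 to 0.368 when 1 library was left out. The cause of these shifts was not tested. The labels do not say if replicate numbers pair libraries. Same-numbered CV and GF libraries deviated with correlations of −0.113 to −0.0019, and differently numbered ones with −0.0979 to 0.154. With 3 libraries a group these values cannot settle pairing. With the number as a block within each organ, 891 genes had an unadjusted p under 0.05 for the tissue difference, against 1291. Of 1349 values of the tissue difference of 59 genes under alternatives, 1306 kept direction and side of the threshold, 36 passed it and 7 turned sign: isg15 (−1.38 to 0.15 when 1 library was left out, turning without intestine GF replicate 2), ELAVL3 (−0.027 to 1.40, turning without kidney GF replicate 1), tubb5 (−0.063 to 1.91, turning without intestine GF replicate 1 or 2) and SLC1A2 (2.64 in voom with quality weights, 4.81 without the 3 libraries and −4.92 to 3.33 when 1 library was left out, turning without intestine GF replicate 3). Of 667 list medians, 44 moved by more than the spread of the list's mean level between libraries of a group. A change of sign was not counted apart for lists. With 3 libraries a group and genes of a few reads, such as penka, vtg7 and CLUL1 in one organ, depth limits the value. CV intestine libraries carry other numbers in another table of the series.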
